A study of Mus musculus with 15 samples.

Results

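The genes described here are 9 genes of thyroid hormone transport, activation, receptor action and response, chosen by name from the 52526 gene names that the values of every mouse list: Slc16a10, Dio2, Thra, Thrb, Rxra, Ncor1, Med1, Thrsp and Klf9. All 9 were found in the tables. Expression was measured by RNAseq of normal mammary tissue, taken from the 4th fat pad on the left side, in 7 mice given BDE-47 and 8 mice given vehicle, with 1 library per mouse. BDE-47 is a polybrominated diphenyl ether, a flame retardant known as a disruptor of thyroid hormone signaling, and the comparison asked whether these genes differed after long exposure to a low dose of it. All mice were female nude mice (Foxn1 nu), first fitted with a pump after 8 weeks of age, and were treated for 16 weeks from a subcutaneous Alzet osmotic mini-pump that was replaced after 8 weeks. The vehicle mice received PEG300 with 1% DMSO, and the BDE-47 mice received the same solution with BDE-47, aimed at 0.03 mg/kg/d. Nude mice lack a thymus and so nearly all mature T cells, while B cells and innate immune cells remain. Some mice of the study also carried a xenograft in the region, which the labels do not give by mouse, so any part of it in the values below was not tested.

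Thyroid hormone reaches the nucleus in steps, each of which is represented here. Transporters carry it across the cell membrane, deiodinases turn the prohormone thyroxine into the active triiodothyronine or inactivate both, and the receptors, bound to DNA as heterodimers with retinoid X receptors, hold target genes down with corepressors when the hormone is absent and switch them on with coactivators when it is present. In adipose tissue, which makes up much of a mammary fat pad, thyroid hormone is known for raising both the synthesis and the burning of fat.

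The promoters of 4 of the 9 genes are shown, because the text below turns on the levels of these genes. Among those of the 9 above the detection floor in every mouse, the lipogenic target Thrsp and the transcription factor Klf9 varied most. The deiodinase Dio2 was near that floor, and the transporter Slc16a10 had the largest difference between the groups. Each promoter is the 250 bases upstream of the transcription start in RefSeq, build GRCm38.p6, written 5′ to 3′ on the strand of the gene. Motif matches on either strand are in capitals. The CCAAT box (CCAAT) is in capitals in Thrsp, Klf9 and Slc16a10, the GC box (GGGCGG) in Slc16a10, and the cAMP response element (TGACGTCA) and the TATA box (TATAAA) in Dio2. Overlapping matches were printed as a single run of capitals.
Thrsp, chr7:97417551-97417800, minus strand: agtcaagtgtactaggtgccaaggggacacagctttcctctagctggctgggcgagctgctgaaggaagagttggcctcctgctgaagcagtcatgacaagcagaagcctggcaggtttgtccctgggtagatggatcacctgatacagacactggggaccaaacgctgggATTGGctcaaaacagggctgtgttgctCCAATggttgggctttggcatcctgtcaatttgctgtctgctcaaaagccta
Klf9, chr19:23140976-23141225, plus strand: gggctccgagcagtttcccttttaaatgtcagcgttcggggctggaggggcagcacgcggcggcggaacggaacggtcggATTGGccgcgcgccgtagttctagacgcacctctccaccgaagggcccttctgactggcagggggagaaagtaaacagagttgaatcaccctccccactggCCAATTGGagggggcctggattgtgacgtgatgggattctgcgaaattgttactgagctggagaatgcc
Dio2, chr12:90739039-90739288, minus strand: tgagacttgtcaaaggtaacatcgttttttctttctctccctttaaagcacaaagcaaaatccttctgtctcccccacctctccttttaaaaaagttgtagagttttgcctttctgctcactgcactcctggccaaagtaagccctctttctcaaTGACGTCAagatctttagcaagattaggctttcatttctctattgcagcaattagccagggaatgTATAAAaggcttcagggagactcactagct
Slc16a10, chr10:40142255-40142504, minus strand: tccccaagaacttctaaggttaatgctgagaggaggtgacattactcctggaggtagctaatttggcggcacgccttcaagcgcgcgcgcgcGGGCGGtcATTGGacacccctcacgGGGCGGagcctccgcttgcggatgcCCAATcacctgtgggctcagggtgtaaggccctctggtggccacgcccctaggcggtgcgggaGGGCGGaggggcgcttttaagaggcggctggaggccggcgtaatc

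RefSeq gave 11 such promoters for 8 of the 9 genes. The half-site of thyroid hormone receptors (AGGTCA) was in 2 of the 11, 1 of Thrb and 1 of Rxra, and in 14.0% of all 32851 promoters of the same length. The direct repeat of that half-site with 4 bases between the copies, the classic receptor site, was in none of the 11 promoters and in 5 of all promoters (0.0152%). The CCAAT box was in 4 of the 11 promoters, of 4 genes, and in 33.8% of all promoters. The GC box was in 5 of the 11, of 5 genes, and in 32.7% of all. The TATA box was in 1 promoter each of Dio2 and Thrb and in 12.4% of all, and the cAMP response element in Dio2 alone and in 1.55%. These matches describe letters in a window and say nothing about binding in these mice.

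The libraries held 10.061 to 19.575 M mapped reads, with medians of 15.187 M in vehicle and 14.375 M in BDE-47, and listed 6929 to 12682 genes above the floor of 1 CPM (counts per 1 M mapped reads). A gene under 1 CPM is listed at 0 in log2(CPM). Some genes that every cell uses were also listed at 0 in single libraries, as in Polr2a and Ppia (both chosen after their values were seen). Polr2a, the large subunit of RNA polymerase II, was at 0 in BDE-47 mouse 4. In the other BDE-47 mice its log2(CPM) was 3.47 to 4.72, lower than in most vehicle mice (4.68 to 6.33). Ppia, a peptidyl-prolyl isomerase, was at 0 in BDE-47 mouse 6 and at 1.70 to 6.07 in the other mice. A 0 is therefore given here only as a listing, and those of the 9 genes with any 0 are given by mouse without a mean ± SD. For other genes with zeros, the differences below take each 0 as listed. All 5 markers of mammary epithelium and all 6 of adipocytes were measured above the floor, with summed levels of 32.9 to 1590 CPM and 375 to 23000 CPM. In all, 3 libraries stood apart. Vehicle mice 6 and 8 were the only ones with all 5 B cell markers above the floor (391 and 553 CPM summed, against 0 to 9.87 CPM in the others), and their adipocyte markers summed to 375 and 907 CPM, against at least 3730 CPM in every other mouse. BDE-47 mouse 6 had 73300 CPM of skeletal muscle markers, against 34.1 to 132 CPM elsewhere. Values without these mice, over the 12 that remain, are given beside each of the 9 genes. In a bulk sample, fewer cells of a type and less RNA per cell cannot be told apart.

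None of the 9 genes differed between BDE-47 and vehicle by more than the spread between mice. Of the 8 that reached 1 CPM in 7 or more libraries, 5 were higher and 3 lower in the mean with BDE-47, with a median log2 difference of 0.41 beside −0.02 over all 9506 genes tested. None of the 8 passed limma after adjustment over all genes tested, none had an unadjusted p under 0.05, and the ranges of the groups overlapped for each of the 9. The background was as sparse: 0 genes (0.0%) passed the adjusted test, with a lowest adjusted p of 0.982, 442 (4.65%) had an unadjusted limma p under 0.05, and the ranges did not overlap for 1 gene (0.0105%). Only Slc16a10 differed by more than 2-fold, and it was higher, while 13.0% of all genes tested were more than 2-fold higher and 13.2% more than 2-fold lower. The mice are separate animals, so p-values measure the spread between animals with that of the measurement in it.

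**Figure D1:**
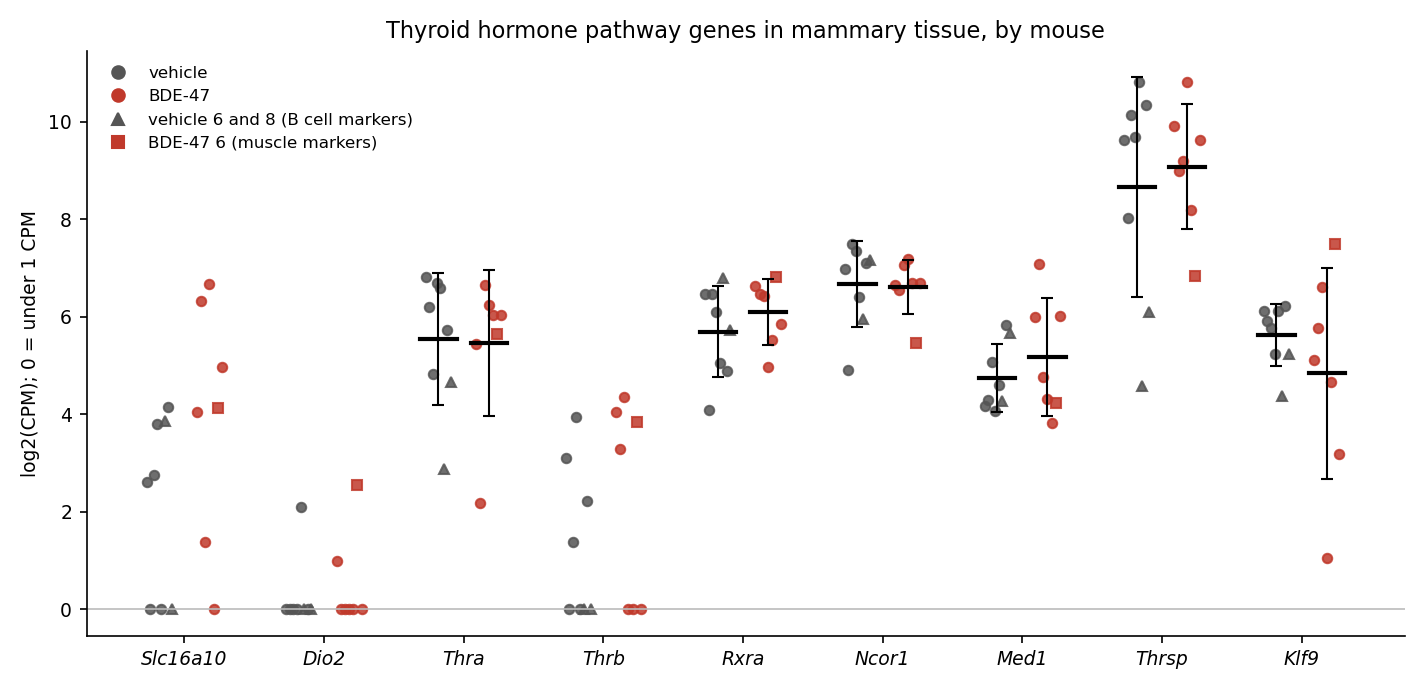
Log2(CPM) of the 9 genes (y axis, 0 stands for under 1 CPM) in each of 8 vehicle mice (grey) and 7 BDE-47 mice (red), with triangles for vehicle mice 6 and 8 and a square for BDE-47 mouse 6. Bars are the mean ± SD of genes above the floor in all mice, and the groups overlap for every gene.

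**Figure D2:**
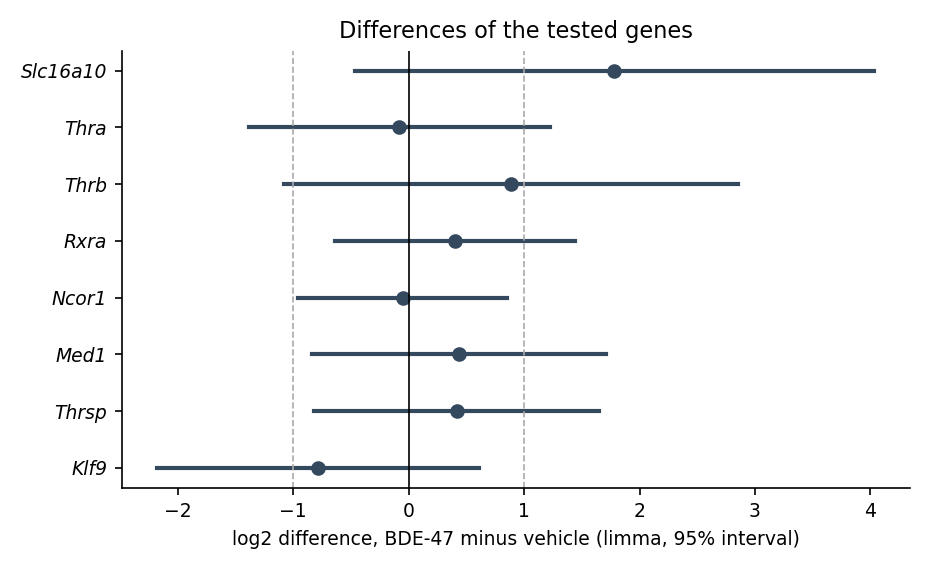
Log2 difference between BDE-47 and vehicle (x axis) for the 8 genes tested, with the 95% interval of limma as a line and dashed lines at a 2-fold change. Every interval holds 0, and that of Slc16a10 runs from −0.47 to 4.03.

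Slc16a10 (chr10:40033532-40142270, minus strand) encodes TAT1, a carrier of aromatic amino acids that also moves thyroid hormone. Its log2(CPM) in vehicle mice 1 to 8 was 2.60, 0, 2.76, 3.79, 0, 3.86, 4.15 and 0, and in BDE-47 mice 1 to 7 it was 4.04, 6.33, 1.37, 6.67, 0, 4.12 and 4.96. BDE-47 mice 2, 4 and 7 were above the highest vehicle mouse, and the other 4 lay inside the vehicle range. The floor was passed in 5 of the 8 vehicle and 6 of the 7 BDE-47 libraries, on 36 to 1972 reads. The mean log2(CPM), with the zeros as listed, differed by 1.78 ± 1.11 (SE of limma), a 3.44-fold difference that did not pass the test (exact permutation test, two-sided, p = 0.128, and limma's adjusted p = 0.982). On the linear scale, the ratio of the mean CPM of the groups was 2.28 as a log2 value, for which the exact permutation test gave p = 0.0407. The exact p was also under 0.05 when BDE-47 mouse 5, listed at 0, was left out (difference of 2.44, p = 0.0393). Without vehicle mice 6 and 8 and BDE-47 mouse 6 the difference was 1.68 (exact p = 0.247).

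Of 10 genes of other carriers and binding proteins, 5 were never above the floor in any mouse. These were Slco1c1 and Slco1a4, organic anion transporters known from the blood-brain barrier, Slc17a4, and the plasma carriers Ttr and Serpina7, which are made chiefly in the liver. Among the 4 that were tested, 2 were higher and 2 lower. Crym, a cytosolic protein that binds triiodothyronine, had the largest rise in the mean (0.96, adjusted p = 0.982, and 0.42 over the 12 mice) and did not pass the test. It was listed at 0 in 5 vehicle and 3 BDE-47 mice.

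Dio2 (chr12:90724552-90739038, minus strand) encodes type 2 deiodinase, which makes triiodothyronine inside the cell and is known from brown adipose tissue, where cAMP induces it. It was listed at 0 in 12 of the 15 mice and could not be tested with limma. The 3 mice above the floor were vehicle mouse 5, with a log2(CPM) of 2.09, BDE-47 mouse 1, with 0.99, and BDE-47 mouse 6, with 2.55, on 20 to 115 reads. The difference of the means was 0.25 (exact permutation test, p = 0.59), and it turned to −0.18 without vehicle mice 6 and 8 and BDE-47 mouse 6. Ucp1, the uncoupling protein of brown and beige fat, was above the floor in 7 mice. It stood at 5.72 in vehicle mouse 5 and at 2.20 in BDE-47 mouse 6, but was listed at 0 in BDE-47 mouse 1. In the other mice with Ucp1 above the floor Dio2 was listed at 0. Among them were vehicle mouse 3 (Ucp1 at 5.15), BDE-47 mouse 4 (4.53) and BDE-47 mouse 7 (5.16). The brown or beige adipocyte markers summed to 1.61 to 286 CPM in vehicle and 6.03 to 894 CPM in BDE-47. The 894 CPM was in BDE-47 mouse 6, the library with skeletal muscle markers, and the next highest BDE-47 mouse had 173 CPM. Of the other deiodinases, Dio1, the enzyme of liver and thyroid, was never above the floor, and Dio3, which inactivates thyroid hormone, was above it in 1 vehicle mouse.

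Thra (chr11:98740776-98769006) encodes thyroid hormone receptor α. It was above the floor in all 15 mice, with a lowest, median and highest log2(CPM) of 2.88, 5.95 and 6.82 in vehicle and 2.18, 6.03 and 6.66 in BDE-47. Most mice of both groups lay between 4.67 and 6.82, and the exceptions were 1 mouse of each group, vehicle 6 and BDE-47 2. The means were 5.54 ± 1.36 (SD, n = 8) and 5.46 ± 1.50 (SD, n = 7), a difference of −0.08 with a 95% interval from −1.39 to 1.22 (limma, adjusted p = 1.000, exact permutation p = 0.903). Left out in turn, these 2 mice moved the difference to −0.46 without vehicle 6 and 0.46 without BDE-47 2. It was −0.67 without vehicle mice 6 and 8 (exact permutation p = 0.411) and −0.70 without BDE-47 mouse 6 as well (exact permutation p = 0.437).

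The last 1075 bases of the Thra gene (chr11:98767932-98769006) lie inside the gene of Nr1d1, the clock repressor REV-ERBα, which is read from the opposite strand. Whether reads were counted by strand is not given in the sources used here, so reads in the overlap cannot be told apart. Nr1d1 itself differed by 0.35 between the groups (adjusted p = 0.994). Across the 15 mice Thra and Nr1d1 had a Pearson r of 0.825 (permutation p = 0.001, adjusted p = 0.002) and a Spearman rho of 0.554 (permutation p = 0.0348, adjusted p = 0.0696). The relation rests on vehicle mouse 6 and BDE-47 mouse 2, in which Nr1d1 was 0.57 and 2.33, for without them r was 0.459. Within vehicle r was 0.867 and within BDE-47 it was 0.847, and each group holds 1 of these mice.

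**Figure D3:**
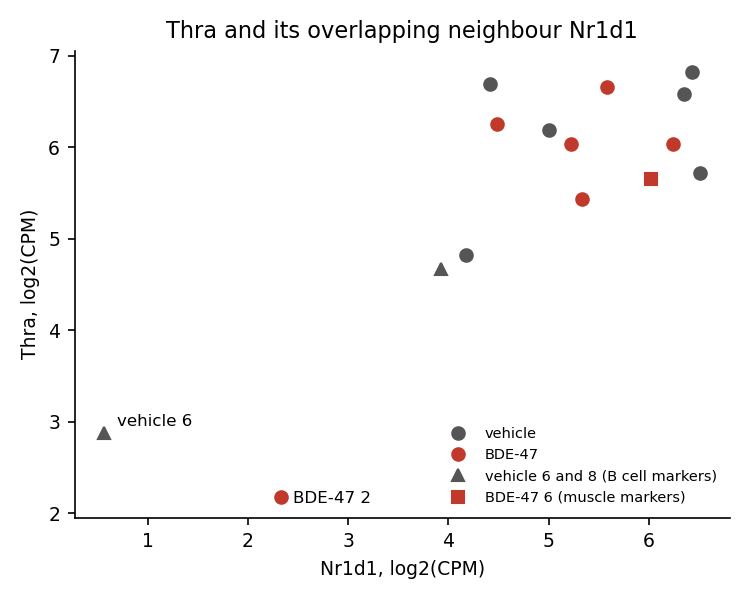
Thra (y axis) against Nr1d1 (x axis), both in log2(CPM), for the 15 mice, with the mice marked as in the plot of values by mouse. Vehicle mouse 6 and BDE-47 mouse 2 sit apart at the lower left, and r falls from 0.825 to 0.459 without them.

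Thrb (chr14:17659225-18040097, plus strand) encodes thyroid hormone receptor β, the main receptor of the liver. Its log2(CPM) in vehicle mice 1 to 8 was 3.11, 0, 1.38, 3.94, 0, 0, 2.22 and 0, and in BDE-47 mice 1 to 7 it was 4.05, 3.28, 4.35, 0, 0, 3.84 and 0. The floor was passed in 4 of the 8 vehicle and 4 of the 7 BDE-47 libraries, on 43 to 285 reads. The difference of 0.89 ± 0.98 (SE of limma) did not pass (adjusted p = 0.982, exact permutation p = 0.357), and it was 0.17 without vehicle mice 6 and 8 and BDE-47 mouse 6. The level of Thrb went with the number of genes a library listed above the floor (Pearson r = 0.67, Spearman rho = 0.678 over 15 mice), which did not hold after adjustment over the 88 relations computed between these genes and properties of the libraries (permutation test, adjusted p = 0.0774 and 0.216). With the 2 mice farthest out in that number, vehicle 1 and BDE-47 3, left out, r was 0.62. Rxra had a like relation to that number (r = 0.554, rho = 0.689, adjusted permutation p = 0.344 and 0.216), with r = 0.663 without the same 2 mice.

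Rxra (chr2:27676445-27763319, plus strand) encodes retinoid X receptor α, the partner of thyroid hormone receptors and of many other nuclear receptors, PPARγ among them. Its lowest, median and highest log2(CPM) were 4.09, 5.91 and 6.80 in vehicle and 4.96, 6.43 and 6.81 in BDE-47, so that all BDE-47 mice but the highest lay inside the vehicle range. The means were 5.70 ± 0.94 (SD, n = 8) and 6.10 ± 0.67 (SD, n = 7), a difference of 0.40 with a 95% interval from −0.64 to 1.44 (limma, adjusted p = 0.993, exact permutation p = 0.368). The other retinoid X receptors, Rxrb and Rxrg, differed by −0.30 and 0.06, and neither passed. Over the 12 mice the difference was 0.47 for Rxra, −0.96 for Rxrb and −1.26 for Rxrg. Rxrb was listed at 0 in 1 vehicle and 2 BDE-47 mice and Rxrg in 4 vehicle and 2 BDE-47 mice, and these differences take each 0 as listed.

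Ncor1 (chr11:62315663-62457414, minus strand) encodes the corepressor that receptors without hormone recruit together with the deacetylase HDAC3. It varied little. The lowest, median and highest log2(CPM) were 4.90, 7.04 and 7.49 in vehicle and 5.47, 6.70 and 7.18 in BDE-47, with means of 6.67 ± 0.88 (SD, n = 8) and 6.62 ± 0.56 (SD, n = 7). The difference of −0.05 had a 95% interval from −0.96 to 0.85 (limma, adjusted p = 1.000, exact permutation p = 0.895), which lies inside a 2-fold change in either direction. In vehicle mouse 2 and BDE-47 mouse 6, the lowest of each group, Ncor1 was 4.90 and 5.47, and over the 12 mice the difference was 0.10. The gene shares 16217 bases, its 3′ end among them, with Ttc19 on the opposite strand. As the strand setting of the counting is not given, reads in this overlap cannot be told apart either. Ttc19, a mitochondrial protein, differed by 1.23 (limma, adjusted p = 0.982), and by 0.99 over the 12 mice. It was listed at 0 in 4 vehicle mice and 1 BDE-47 mouse.

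Of the 5 other genes of the corepressor complex, 2 were higher and 3 lower. Only 1 had an unadjusted limma p under 0.05, beside 4.65% of all genes tested. This was Tbl1xr1, a subunit that governs the exchange of corepressors for coactivators. Its lowest, median and highest log2(CPM) were 4.97, 5.95 and 6.94 in vehicle and 2.04, 4.58 and 6.17 in BDE-47, so the groups overlapped. The difference was −1.44 (exact permutation p = 0.00824, limma's unadjusted p = 0.0179 and adjusted p = 0.982), and over the 12 mice it was −1.15 (exact permutation p = 0.0693).

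Med1 (chr11:98152154-98193313, minus strand) encodes the Mediator subunit that binds liganded nuclear receptors. Its lowest, median and highest log2(CPM) were 4.07, 4.44 and 5.82 in vehicle and 3.81, 4.76 and 7.09 in BDE-47. BDE-47 mouse 2 had the highest level of all, and mice 1 and 7 were also above every vehicle mouse. The means were 4.74 ± 0.69 (SD, n = 8) and 5.18 ± 1.20 (SD, n = 7), a difference of 0.43 with a 95% interval from −0.84 to 1.71 (limma, adjusted p = 0.994, exact permutation p = 0.398). Without BDE-47 mouse 2 the difference was 0.11, and over the 12 mice it was 0.66.

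Among 6 other Mediator subunits tested, 2 were higher and 4 lower. Med16 had the largest rise (1.17) and Med24, which sits beside MED1 in the complex, the largest fall (−1.85, limma, adjusted p = 0.982). Of 7 other coactivators tested, 2 were higher and 5 lower, from −0.97 for Ncoa3, a p160 coactivator, to 1.25 for Carm1, an arginine methyltransferase. None passed the test, and these 4 genes were each listed at 0 in 2 to 5 mice. Over the 12 mice the difference of Ncoa3 was −0.07. Over the 44 other genes of thyroid hormone transport, action and response (lipogenesis not counted), 34 were tested, of which 13 were higher and 21 lower, with a median difference of −0.25.

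Thrsp (chr7:97412933-97417550, minus strand) encodes Spot 14, a small nuclear protein named for its response to thyroid hormone, which promotes fatty acid synthesis in liver, fat and mammary gland. Among the 6 genes above the floor in every mouse it had the largest spread within groups. Its lowest, median and highest log2(CPM) were 4.57, 9.66 and 10.82 in vehicle and 6.84, 9.20 and 10.81 in BDE-47, on 370 to 34794 reads. The 3 lowest mice were vehicle 6, vehicle 8 and BDE-47 6, the same mice that stood apart by their markers, and the highest mice of both groups were level. The means were 8.66 ± 2.25 (SD, n = 8) and 9.08 ± 1.28 (SD, n = 7), a difference of 0.42 with a 95% interval from −0.82 to 1.65 (limma, adjusted p = 0.994, exact permutation p = 0.68). The direction turned without the mice that had little of the adipocyte markers: without vehicle mice 6 and 8 the difference was −0.69 (exact permutation p = 0.3), and without BDE-47 mouse 6 as well it was −0.32 (exact permutation p = 0.556). With the adipocyte marker level as a covariate and all 15 mice it kept its direction, at 0.16 ± 0.28 (SE of limma).

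The level of Thrsp varied from mouse to mouse with those of the enzymes of fatty acid synthesis. Pearson's r over the 15 mice was 0.966 with Fasn, fatty acid synthase (Spearman rho = 0.914), 0.956 with Acaca, acetyl-CoA carboxylase (0.861), 0.946 with Acly, ATP citrate lyase (0.946), 0.938 with Scd1, stearoyl-CoA desaturase (0.85), 0.957 with Me1, malic enzyme (0.975), and 0.838 with Elovl6, a fatty acid elongase (0.95). All 6 passed the permutation test after adjustment over the 14 relations computed (adjusted p from 3.5e-05 to 0.00014 for r and from 4.67e-05 to 0.000443 for rho), and for 4 of the 6 the unadjusted p of r was 1e-05, the smallest that 100000 resamples can give. Over the 12 mice that remain without the 3 libraries that stood apart, r was 0.676 with Scd1 and 0.863 to 0.931 with the other 5, and within the groups it was 0.851 to 0.995 in vehicle and 0.824 to 0.982 in BDE-47. None of these enzymes passed the test between the groups. Of the 8 genes of lipogenesis, 4 were higher and 4 lower, from −0.59 for Mid1ip1, a relative of Thrsp, to 0.91 for Acaca.

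The level of Thrsp also went with the adipocyte markers, with r = 0.941 and rho = 0.854 over 15 mice (permutation test, adjusted p = 0.00088 and 0.0106 over 88 relations). Without vehicle mice 6 and 8, r was 0.842, over the 12 mice it was 0.729, and within vehicle and BDE-47 it was 0.971 and 0.951. Markers of mammary epithelium had r = 0.838 (adjusted permutation p = 0.0378) but rho = 0.604 (adjusted p = 0.347), and over the 12 mice r was −0.13. The 6 adipocyte markers hold none of the 6 enzymes. Their summed level reached 23000 CPM in vehicle and 11900 CPM in BDE-47, with medians of 16800 and 9710 CPM, although 5 of the 6 markers were higher with BDE-47 in mean log2(CPM) (median difference 0.43, none past limma). The part of the markers in the levels of Thrsp was not tested beyond the covariate above.

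**Figure D4:**
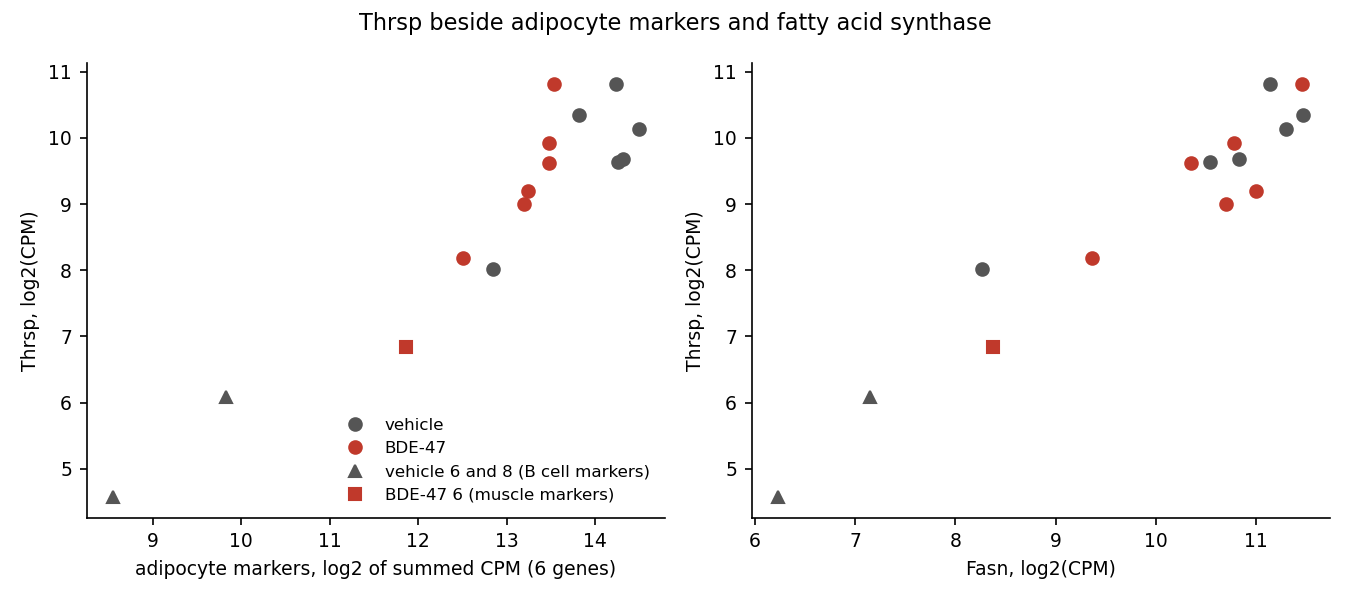
Log2(CPM) of Thrsp (y axes) against the log2 of the summed CPM of 6 adipocyte markers (left) and against log2(CPM) of Fasn (right) in the 15 mice, marked as in the plot of values by mouse. Thrsp climbs with both, with r of 0.941 and 0.966, and vehicle mice 6 and 8 and BDE-47 mouse 6 lie lowest.

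Klf9 (chr19:23141226-23168129, plus strand) encodes a Krüppel-like transcription factor that thyroid hormone and glucocorticoids both induce directly. Among the 6 genes above the floor in every mouse, the range from lowest to highest mouse was 6.01- to 9.69-fold for Ncor1, Rxra and Med1. It was 24.9-fold for Thra, 75.9-fold for Thrsp and 87.2-fold for Klf9, the widest of the 6. Its lowest, median and highest log2(CPM) were 4.38, 5.84 and 6.21 in vehicle and 1.05, 5.11 and 7.49 in BDE-47, so the vehicle mice lay inside the range of the BDE-47 mice, which reached further both ways. BDE-47 mouse 4 was the lowest, on 40 reads, and BDE-47 mouse 6, the one with muscle markers, was the highest, on 3523 reads. The means were 5.62 ± 0.63 (SD, n = 8) and 4.84 ± 2.17 (SD, n = 7), a difference of −0.78 with a 95% interval from −2.18 to 0.61 (limma, adjusted p = 0.982, exact permutation p = 0.373). Single mice decided its size: it was −0.15 without BDE-47 mouse 4, −1.22 without BDE-47 mouse 6 and −1.50 without vehicle mice 6 and 8 and BDE-47 mouse 6 (exact permutation p = 0.0887), while the ratio of the mean CPM had the opposite sign (0.12 on the log2 scale).

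No relation of Klf9 with glucocorticoid targets or clock outputs passed its test. With the glucocorticoid targets Tsc22d3, Fkbp5 and Per1 its Pearson r over 15 mice was −0.32, −0.07 and −0.40, and with the clock output factors Tef and Dbp it was −0.09 and 0.16, with a lowest adjusted permutation p of 0.236. These values moved with a few mice: for Tsc22d3 r was 0.202 without BDE-47 mice 4 and 7, the farthest out in Klf9, and −0.653 over the 12 mice. Of the 5 glucocorticoid responsive genes tested, 4 were higher and 1 lower, and Tsc22d3, also known as GILZ, was 1.68 higher in the mean with an unadjusted p under 0.05 (exact permutation p = 0.00373, limma's unadjusted p = 0.00806 and adjusted p = 0.982). Of the 7 clock output genes, 6 were higher and 1 lower, and 3 had an unadjusted p under 0.05, beside 4.65% of all genes tested: Tef (1.60, adjusted p = 0.982), Dbp (2.39, adjusted p = 0.982) and Per2 (2.41, adjusted p = 0.982). Dbp was listed at 0 in 3 vehicle mice, 6 and 8 among them, and Per2 in 6 vehicle and 2 BDE-47 mice, while Tef was lowest in vehicle mice 8 and 6 (4.20 and 4.54). Over the 12 mice the differences were 1.21 for Tef (exact permutation p = 0.00216), 1.24 for Dbp (0.162), 2.37 for Per2 (0.0866) and 1.49 for Tsc22d3 (0.0216). Tef was the 1 gene of all those tested whose groups did not overlap. Its exact p over the 12 mice follows from that and is the smallest two-sided p they can give. Both lists had been chosen with earlier results of these data known, so their counts and p-values are given as a description.

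Among the other genes that thyroid hormone is known to drive, 4 of 10 were higher and 6 lower. Cpt1a, which controls the entry of fatty acids into mitochondria for oxidation, had the largest difference and the only unadjusted p under 0.05 (−1.67, limma's unadjusted p = 0.0293 and adjusted p = 0.982, exact permutation p = 0.0659), and over the 12 mice it was −1.10. It rests on BDE-47 mice 4 and 6, at log2(CPM) of 0.68 and 0.71, beside 5.29 to 6.12 in the other BDE-47 mice and 4.90 to 6.76 in vehicle. Ucp1 differed by −0.23. Over all 67 genes of these lists, 54 were tested, 27 were higher and 27 lower, and 0 passed the adjusted test, with 6 (11.1%) at an unadjusted p under 0.05 beside 4.65% of all genes tested. The 44 genes of thyroid hormone transport, action and response gave 2 of these (5.88% of 34 tested). The clock and glucocorticoid lists, which gave the other 4, had been chosen with earlier results of these data known.

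**Figure D5:**
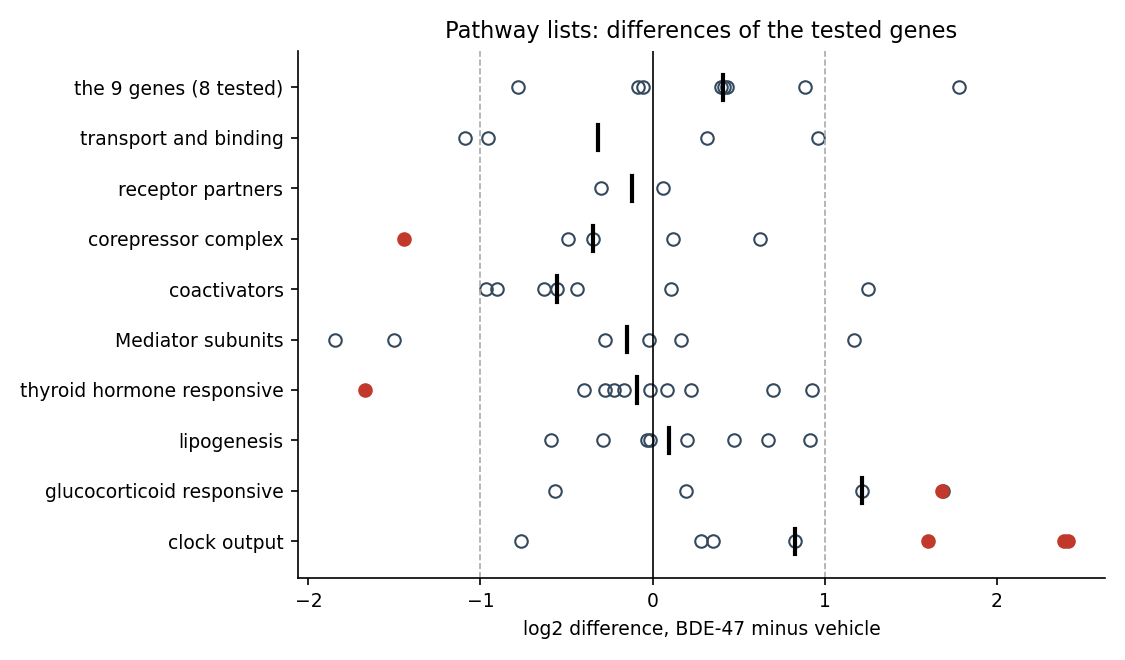
Log2 difference between BDE-47 and vehicle (x axis) of each gene tested, by list (y axis), with filled points for an unadjusted limma p under 0.05, a black tick at the median of a list and dashed lines at 2-fold. The 6 filled points are Tbl1xr1 and Cpt1a on the left and Tsc22d3, Tef, Dbp and Per2 on the right, and none passes after adjustment.

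The spread between mice of a group, with that of the measurement in it, set what could be seen. Among the 2577 genes above the floor in all 15 mice, the median within-group SD was 0.999 on the log2 scale. Thrsp, at 1.87, spread more than 94.2% of these genes, Klf9, at 1.55, more than 83.0%, and Thra, at 1.42, more than 78.5%. Med1 was near the middle (0.96, 46.3%), while Rxra (0.83, 32.4%) and Ncor1 (0.75, 24.6%) were steadier. With reads taken as independent molecules, counting error alone would be smaller. The lowest library of Klf9, on 40 reads, would have a counting SD of 0.228 on the log2 scale, and that of Thrsp 0.075. Whether reads are independent molecules, and the size of other errors of measurement, was not tested.

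Over the 15 pairs of the 6 genes above the floor in every mouse, Pearson's r ran from −0.525 (Thra with Med1) to 0.506 (Thra with Thrsp), with a median of 0.133, and for the pairs fixed in the design it was −0.383 for Thra with Rxra and 0.197 for Ncor1 with Med1, neither past the permutation test (adjusted p = 0.241 and 0.619). The genes most like each in rank over the 15 mice, of 2576 candidates, are given as a description. For Thrsp they were Me1 (rho = 0.975), Dgat2, which makes triglycerides (0.954), and Elovl6 (0.95), which are all genes of fat synthesis. For Thra they were Reep5 (0.857), Grina (0.711) and Fxyd2 (0.696), for Rxra Snrpb2 (0.807), Metap2 (0.771) and Nipsnap2 (0.754), for Ncor1 Lama4 (0.8), Mcfd2 (0.796) and Senp6 (0.789), for Med1 Poldip3 (0.818), Eif4h (0.782) and Gpaa1 (0.732), and for Klf9 Eif4ebp2 (0.761), Mtch2 (0.743) and Ndufa5 (0.725).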

How the data were processed

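RNA of mammary tissue of 15 mice was sequenced with QuantSeq 3′ FWD, which reads transcripts near their 3′ end, so values are not scaled by gene length. Per the submitters' processing notes, reads were mapped with STAR 2.5.3a to GRCm38. The counting tool and its strand setting are not given in the sources used here. The authors normalized to mapped reads, and the deposited values are log2 of CPM with each gene under 1 CPM listed at 0. The CPM spacing of low values, whole multiples of 1 read (100.0% within 0.1 read), gave the depth, 10.061 to 19.575 M mapped reads. Count tests were not used, because reads under the floor are lost.

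Groups came from the labels. Of 52636 entries per mouse, 110 repeated a name and were left out. The 9506 genes that reached 1 CPM in 7 mice or more were tested with limma 3.58.1 (trend) in R 4.3.3 with Benjamini-Hochberg adjustment over all of them. Single genes were tested with the exact permutation test, two-sided, over the 6435 ways to choose 7 of 15 mice (smallest p 0.000155), and relations with a two-sided permutation test of 100000 resamples. Genes past 2-fold were counted without a test, the study's covariate (a xenograft) is not in the labels, and p-values of the 9 genes were not adjusted over them alone. The named genes are the 9 genes, list genes with an unadjusted p under 0.05 or the largest rise and fall of a list, Nr1d1, Ucp1 and the 3 genes most like each member in rank. Ttc19, Polr2a and Ppia were added later. A result of 1 list gene is not reported here. The 9 genes and the lists were chosen with earlier results of these data known.

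Alternatives were log2(CPM + 1) and log2(CPM + 0.1), size factors, the ratio of mean CPM, other filters, array weights, a replicate block, and mice left out. Leaving out 3 mice together (for the 9 genes and named list genes) and the adipocyte covariate were chosen after seeing the data. Deviations of same-numbered mice had correlations of −0.018 to 0.053 in 7 pairs, while 7 of 14 mice correlated best with their own number. No chance level was computed for this count, and whether the numbers mark pairs was not tested. Promoters and gene positions are from RefSeq GRCm38.p6. Python 3.11.15, numpy 2.4.6, scipy 1.17.1, pandas 2.3.3 and matplotlib 3.10.9 were used, and the scripts were tested on simulated data.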

Additional observations from a re-analysis of the deposited data

Results flagged for a closer look

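In 4 of the 18 sets of values (9 genes in 2 groups), 1 mouse lay far from the rest of its group by Dixon's criterion, which chance alone meets in about 1 of 20 groups of measured values. That rate does not apply to the groups of Dio2, Slc16a10 and Thrb, which hold values listed at 0. For Dio2 most mice are listed at 0, so that a mouse above the floor readily lies far from the rest. The rate can be set beside only the 6 genes above the floor in every mouse, of which Thra and Ncor1 were flagged. Dio2 was 2.09 in vehicle mouse 5, where the other 7 vehicle mice were listed at 0, and 2.55 in BDE-47 mouse 6, beside 0.99 in BDE-47 mouse 1 and 0 in the other 5. Thra was 2.18 in BDE-47 mouse 2, and the next BDE-47 mouse was at 5.43. Ncor1 was 5.47 in BDE-47 mouse 6, the library with skeletal muscle markers, and the next was at 6.55. All are log2(CPM), and the causes were not tested.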

How the results depend on the processing

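Of 206 values recomputed under alternatives, 183 kept their direction and side of the threshold, 21 changed sign and 2 passed it. With size factors the difference of Thra was 0.01 and that of Ncor1 0.04, as the median difference of all genes moved from −0.016 to 0.065 (log2). With the replicate number as a replicate block, which leaves out vehicle mouse 8, that of Ncor1 was 0.02, the same as without that mouse alone. With the block 0 genes passed limma (381 at an unadjusted p under 0.05), and it changed no call. Of 14 mice, 7 correlated best with their own number. On the ratio of mean CPM, Thrsp was −0.10 and Klf9 0.12, 1 of the 9 genes had an exact p under 0.05 (Slc16a10) and 3 were past 2-fold (Slc16a10, Dio2 and Thrb). With log2(CPM + 0.1) or size factors 2 were past 2-fold (Slc16a10 and Thrb), and 2 without vehicle mice 6 and 8, with or without BDE-47 mouse 6 (Slc16a10 and Klf9). Without vehicle mice 6 and 8 Thrsp was −0.69, and without BDE-47 mouse 6 as well Thrsp was −0.32, Ncor1 0.10 and Dio2 −0.18, and 1 gene passed limma, Wfdc18 (adjusted p = 0.0439). Leaving out 1 mouse at a time gave 1 to 2 genes past 2-fold, 0 to 1 with an exact p under 0.05, and ranges of −0.46 to 0.46 for Thra, −0.31 to 0.14 for Ncor1, −0.17 to 0.79 for Thrsp and −0.10 to 0.51 for Dio2. Slc16a10 ran from 1.32 to 2.56 over all alternatives (p from 0.0393 to 0.252). Elsewhere 0 genes passed limma, with 339 to 573 at an unadjusted p under 0.05. The cause was not tested. The floor limits what can be said of Dio2, Thrb and Slc16a10, since a value under 1 CPM (10.061 to 19.575 reads) is listed at 0.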
